A study of Rattus norvegicus with 18 samples.

Results

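The Camk2b locus was taken as the CpGs within 50 kb on either side of a CpG at chr14:86244303 of the rat genome build rn6, an intronic site of Camk2b that is called the centre site here. The centre site was selected because both treated groups had a lower methylation there than the UNT group, so its values in these 2 comparisons are a description without a test. The other CpGs of the locus were taken by their distance alone. Of 1451601 CpGs of the series with at least 10 reads on a cytosine in 1 or more of the 18 striata, 164 belonged to the locus, on 187 cytosines, since 23 of these CpGs were kept on both strands. A further minimum decided which of the 164 could be compared: 101 were kept in at least 4 of the 6 striata for UNT, 71 for L-DOPA, 58 for L-DOPA + R, and 55 for all 3 treatments. In all 18 striata, 33 were kept.

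Striata of 9 male Wistar rats were measured by reduced representation bisulfite sequencing (RRBS), in which DNA is cut at CCGG by the enzyme MspI, unmethylated cytosines are converted by bisulfite, and the share of reads that still carry a C gives the percentage of methylation. Each rat had a unilateral injection of 6-hydroxydopamine (6-OHDA), a toxin of dopaminergic neurons, into the medial forebrain bundle on postnatal day 21, and both its lesioned striatum and the contralateral (control) striatum were sequenced. Control and lesioned striata with the same replicate number were taken to come from 1 rat. From postnatal day 35 to 49, 3 rats received saline (UNT), 3 received L-DOPA with benserazide, and 3 received L-DOPA with benserazide and Riluzole (L-DOPA + R). A last treatment preceded the collection on postnatal day 53. All 3 treatments shared the lesion, and no rat without a lesion was included. The control striatum belonged to the brain of the lesioned rat and is not tissue of an intact animal. The DNA came from whole striatum, so that a change within cells and a change in the mixture of cells cannot be told apart. Samples were pooled before the bisulfite treatment, and the sample labels do not name the pools. A difference between treatments and one between pools or libraries can therefore not be told apart. Between 30288745 and 49113957 cytosine calls were listed per striatum for UNT, between 18471279 and 30764504 for L-DOPA and between 19383285 and 25846139 for L-DOPA + R. At the CpGs of the locus, the median coverage of a kept CpG was 20 reads in UNT and 16 in each of the treated groups, so a single striatum gives a methylation level only in coarse steps.

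Camk2b encodes the beta subunit of calcium/calmodulin-dependent protein kinase II (CaMKII), which assembles with the alpha subunit into large kinase complexes at glutamatergic synapses. Calcium-bound calmodulin activates the kinase, autophosphorylation keeps it active after the calcium signal has gone, and the beta subunit also ties the complex to filamentous actin. In the striatum, the kinase acts in the spines of the medium spiny neurons, where glutamatergic and dopaminergic inputs meet. Methylation of CpGs is typically absent from promoters with many CpGs and high within the bodies of genes.

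The promoters of 2 genes could be tied to the data and are shown because they give the unmethylated ends between which the centre site lies. Their sequences come from RefSeq on GRCr8, a later build than that of the methylation calls, and were placed on rn6 by the spacing of their CpGs. For Camk2b, 32 of the 32 CpGs listed within a window of 300 bases coincided with CpGs of the sequence, against at most 17 of 30 at any other placement on the chromosome. For Ykt6, which encodes a SNARE protein of vesicle fusion, these were 13 of 13 and at most 7 of 9. The starts that the promoter table gives for the 2 genes lay 101753 bases apart in this placement and 101755 bases apart in GRCr8. The gene spans of RefSeq begin 177 bases upstream of this start for Camk2b and 4796 bases upstream for Ykt6, so both stretches overlap the gene spans. The 250 bases before the start in the promoter table are given 5′ to 3′ on the strand of the gene, with the CpGs that had at least 10 reads in a striatum in capitals. The stretch of Camk2b is chr14:85147945-85148194 of GRCr8 on the minus strand, and that of Ykt6 is chr14:85045939-85046188 on the plus strand.
Camk2b: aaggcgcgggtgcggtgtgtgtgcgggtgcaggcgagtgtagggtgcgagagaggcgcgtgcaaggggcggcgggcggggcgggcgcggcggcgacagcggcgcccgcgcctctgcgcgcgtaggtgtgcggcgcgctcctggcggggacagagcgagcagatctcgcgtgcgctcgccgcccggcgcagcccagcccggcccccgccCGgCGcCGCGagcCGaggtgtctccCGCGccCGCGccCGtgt
Ykt6: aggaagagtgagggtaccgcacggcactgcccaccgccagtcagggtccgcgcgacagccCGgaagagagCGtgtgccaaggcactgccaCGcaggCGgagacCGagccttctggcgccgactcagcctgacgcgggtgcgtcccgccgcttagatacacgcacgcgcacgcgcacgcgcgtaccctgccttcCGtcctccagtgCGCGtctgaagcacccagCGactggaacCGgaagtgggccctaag
The Camk2b stretch holds 47 CpGs, more than 99.8% of the 33469 promoter stretches of the same length, and 3 CCGG sites of MspI. The Ykt6 stretch holds 31 CpGs, more than 95.3% of them, and 2 CCGG sites. At least 1 CCGG was present in 46.2% of all promoter stretches. No protein sequence of Camk2b was used here.

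Along the locus, methylation went from almost 0 at the Ykt6 promoter through mostly methylated stretches to almost 0 at the Camk2b promoter. The start of Ykt6 in the promoter table was placed 48404 bases before the centre site, within the locus. In its window of 300 bases, 13 CpGs were kept, and 0.855% of 936 reads were methylated for UNT, 1.00% of 299 for L-DOPA and 2.30% of 174 for L-DOPA + R. That of Camk2b was placed 53349 bases past the centre site, just outside the 50 kb, at position 86297652 of rn6. Of the reads in its window, 1.06% of 1611 were methylated for UNT, 1.08% of 461 for L-DOPA and 0.882% of 1020 for L-DOPA + R. Single striata ranged from 0 to 1.90% in UNT at the Camk2b promoter, from 0.627 to 2.56% in the 3 L-DOPA striata with kept CpGs and from 0 to 2% in L-DOPA + R. No difference between the treatments was tested there. In GRCr8, Camk2b runs on the minus strand over 88956 bases, with Ykt6 and Nudcd3 as its neighbours. Exons and introns of single CpGs were not assigned here.

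Among the 55 CpGs kept in all 3 treatments, the median methylation was 79.8% for UNT, 76.2% for L-DOPA and 75.8% for L-DOPA + R. Over 556340 CpGs of the whole series kept in the same way, the medians were 50.4, 48.03 and 44.8%. In UNT, 27 of the 55 CpGs had 80% methylation or more, 25 had 20 to under 80%, and 3 had under 20%. These shares of 49.1, 45.5 and 5.45% stood against 36.2, 21.7 and 42.1% in the whole series, so the compared CpGs of the locus held fewer unmethylated and more intermediate sites. This describes the CpGs that passed the minimum, since none of the 18 CpGs of the first stretch at the Ykt6 promoter was kept in all 3 treatments.

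The 164 CpGs lay in 59 stretches, with gaps of at most 100 bases within a stretch. From 27843 to 27530 bases before the centre site, a stretch of 11 CpGs had 88.2% methylated reads for UNT, 89.7% for L-DOPA and 88.4% for L-DOPA + R. The 5 CpGs from 10506 to 10441 bases before it had 90.8, 87.9 and 87.7%. Closer to the centre site, levels were mixed. A CpG at 4320 bases before it had 3.23% of 31 reads methylated for UNT, 0% of 44 (up to 6.82% at a limit of 3 reads) for L-DOPA and 2.27% of 44 for L-DOPA + R. In UNT alone, a CpG at 8530 bases before it had 0% of 11 reads (up to 27.3%) and 2 CpGs from 4094 to 4082 bases before it had 17.8% of 45, all with too few striata to be compared. The 6 CpGs from 2328 to 2153 bases before it had 38.4, 39.4 and 40.7%, with single CpGs from 18.7 to 61.4% in UNT. A single CpG at 38997 bases before the centre site stood at 19.5, 20.3 and 24.6% within otherwise methylated surroundings. Past the centre site, 3 CpGs from 7946 to 8032 bases had 29.7, 24.8 and 27.2%, and 3 CpGs from 12279 to 12325 bases had 87.9, 78.9 and 81.9%. At the borders of the locus, the outermost kept CpG before the centre site (-48594 bases) had 3.60% methylation in UNT, and the next one outside (-52058 bases) had 90.3%. On the other end, the last CpG inside (49045 bases) had 40.7% and the first outside (50805 bases) had 37.4%.

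**Figure D1:**
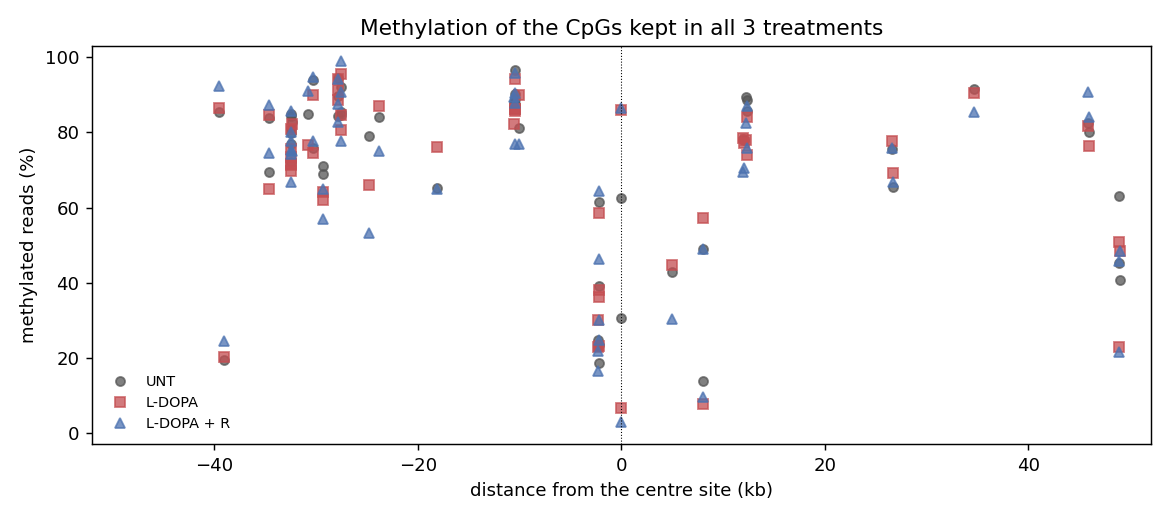
Percentage of methylated reads (y axis, reads of the striata of a treatment added up) against the distance from the centre site in kb (x axis) for the 55 CpGs kept in at least 4 of 6 striata of UNT (circles), L-DOPA (squares) and L-DOPA + R (triangles). Most CpGs overlap between the treatments, and the centre site and its neighbour at 0 kb separate UNT from the treated groups in opposite directions.

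At the centre site, with the strands merged, 30.5% of 311 reads were methylated for UNT, 6.67% of 105 for L-DOPA and 2.99% of 67 for L-DOPA + R. The control striata of UNT rats 1 to 3 had 33.9, 26.2 and 21.4%, and their lesioned striata had 25, 51.2 and 28.3%. In L-DOPA, the control striata had 10, 0 and 9.09% and the lesioned striata 0, 8.33 and 6.25%. In L-DOPA + R, rat 1 had only 7 and 8 reads in its 2 striata and dropped out below the minimum, while rats 2 and 3 had 0 and 6.25% in the control and 0 and 5% in the lesioned striata. Every UNT striatum thus lay above every kept treated striatum. Over rats, with the reads of both striata added up, the level was 31.3% ± 7.0 (SD, n = 3) for UNT, 6.20% ± 2.09 (SD, n = 3) for L-DOPA and 2.78% ± 3.93 (SD, n = 2) for L-DOPA + R. The differences of -23.9 points for L-DOPA and -27.6 points for L-DOPA + R against UNT are those for which the site was chosen. The comparison of L-DOPA + R with L-DOPA was not used for the choice. It gave -3.68 points, which did not pass the test (logistic model with chi-square test, q = 0.829), with 95% Wilson intervals of 3.27 to 13.1% for L-DOPA and 0.822 to 10.2% for L-DOPA + R. Intervals given here cover counting error only.

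The strands of the centre site differed from each other more than the treatments did. The forward cytosine was low in every treatment, with 5.50% of 218 reads for UNT, 6.67% of 105 for L-DOPA and 3.66% of all 82 reads for L-DOPA + R. The reverse cytosine was high, with 89.2% of 93 reads for UNT, and it was nearly absent from the treated striata, where 1 reverse read was listed for L-DOPA and 2 for L-DOPA + R, all 3 of them methylated. In UNT, the forward cytosine had 10.9, 0 and 0% in the control and 2.86, 10 and 9.30% in the lesioned striata of rats 1 to 3. The reverse cytosine had 100, 100 and 92.3% in the control and 84.6, 87.0 and 76.5% in the lesioned striata. The values of the strands thus did not overlap in UNT, and the forward values of UNT overlapped those of the treated groups. Reverse reads made up 29.9% of the listed reads for UNT (95% Wilson interval 25.1 to 35.2%), 0.943% for L-DOPA (0.167 to 5.15%) and 2.38% for L-DOPA + R (0.655 to 8.27%).

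The only other kept CpG within 100 bases, at chr14:86244256, lies 47 bases before the centre site and showed the mirror image. Its forward cytosine was high, with 86.9% of 221 reads for UNT, 86% of 100 for L-DOPA and 88.9% of all 81 for L-DOPA + R, and its reverse cytosine was low, with 4.30% of 93 reads in UNT and 2 or 3 reads in the treated groups. With the strands merged, the level was 62.4% for UNT, 86% for L-DOPA and 86.6% for L-DOPA + R, which is 23.6 and 24.1 points above UNT. In UNT, the striata ranged from 46.5 to 70.5% with a median of 61.9%, in L-DOPA from 58.3 to 100% with a median of 90.5%, and in the 4 kept striata of L-DOPA + R from 60 to 100% with a median of 97.6%. The ranges of single striata overlapped, while the levels over rats did not. The same reads cover both CpGs, so the neighbour is no separate evidence and no test is given. Added up over both CpGs, 46.6% of calls were methylated for UNT, 45.4% for L-DOPA and 44.8% for L-DOPA + R. On either strand, the cytosine that a read meets first was the methylated one, and the cytosine 47 bases further along the read was the unmethylated one.

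**Figure D2:**
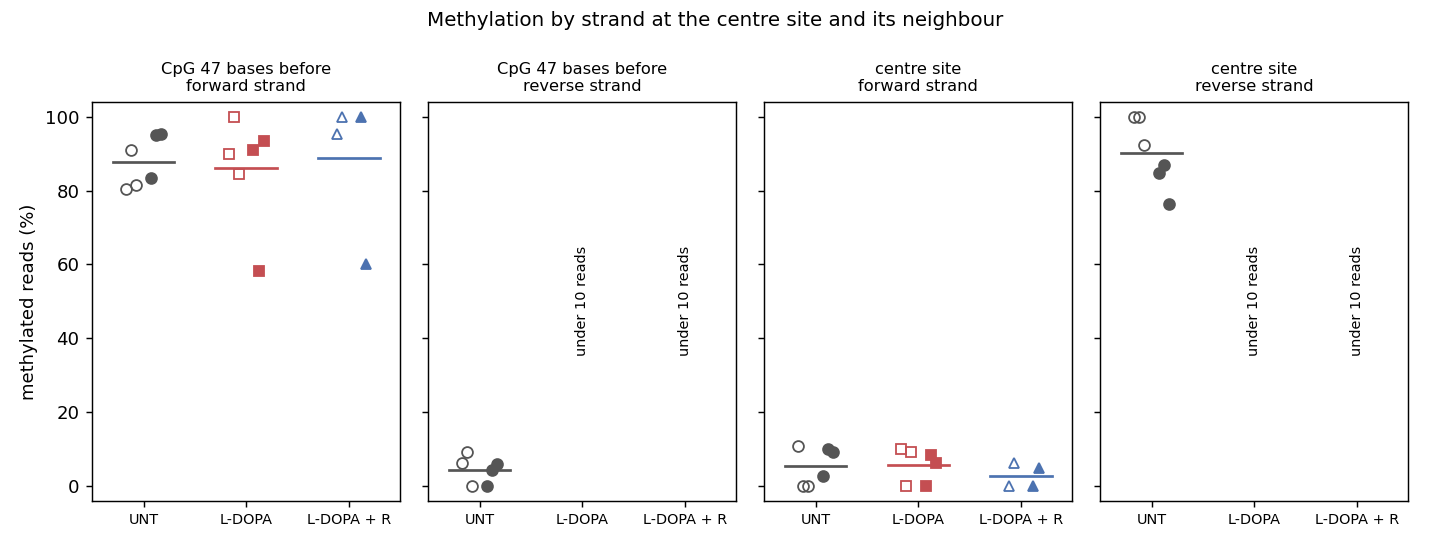
Percentage of methylated reads (y axis) in each striatum with at least 10 reads on that cytosine, for the CpG 47 bases before the centre site and for the centre site, each strand apart, in UNT, L-DOPA and L-DOPA + R (open symbols: control, filled: lesioned, line: mean over striata). Within a strand, the treatments lie at similar heights, and the reverse strand has enough reads in UNT alone.

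In UNT, such a gap between the strands was seen at this pair of CpGs alone among the members that could be compared. Of 11 CpGs with both strands kept in at least 4 UNT striata, the centre site (forward minus reverse -83.7 points) and its neighbour (82.6 points) were the 2 that differed by 50 points or more, and the other 9 had gaps of up to 9.30 points. In the whole series, 1.79% of 175291 such CpGs differed by 50 points or more. In the treated groups, where this pair lacked reverse reads, 1 of 7 CpGs of the locus was that far apart, chr14:86293199, by 53.4 points for L-DOPA and 50.5 points for L-DOPA + R, against 2.22 and 1.87% of such CpGs in the series. Of 10 CpGs with both strands kept in at least 4 UNT striata and still compared in L-DOPA, the 2 of the pair had lost a strand, and for L-DOPA + R these were the same 2 of 9. Over the series, a strand was lost at 7.44% of such CpGs for L-DOPA and 7.20% for L-DOPA + R. Where a cytosine lay 47 bases past another on either strand, as in this pair, these shares were 14.9 and 12.97%. The same reads cover both CpGs, and the difference for which the centre site was chosen is that of the merged strands, so these counts are a description and nothing is read from them.

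To place the centre site among the other members, methylation was compared between the treatments at all CpGs of the locus, with q adjusted over all CpGs of the series and differentially methylated sites (DMS) called at q under 0.01. In L-DOPA against UNT, 71 CpGs of the locus were tested and 1, the centre site, was a DMS with lower methylation, while 0.269% of the CpGs tested in the series were DMS with lower methylation. Since the centre site was chosen on this comparison, nothing is read from that count. Apart from the centre site and its neighbour, 0 of 69 CpGs were called (8 with an unadjusted p under 0.05, where 7.37% of the CpGs of the series had one), and their differences ran from -22.4 to 12.9 points with a median of -1.06 points. The median over all CpGs of the series was -0.00614 points.

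In L-DOPA + R against UNT, 58 CpGs were tested and 2 were DMS, both with lower methylation, where the series had 0.361% of CpGs in that direction. These were the centre site and a CpG at chr14:86293199. Apart from the centre site and its neighbour, 1 of 56 CpGs was called (5 with an unadjusted p under 0.05, where 9.52% of the CpGs of the series had one), and the differences ran from -25.6 to 11.3 points with a median of -1.46 points, against -0.265 points over the series. The comparisons of L-DOPA and of L-DOPA + R share the UNT striata and are not independent of each other.

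In L-DOPA + R against L-DOPA, 0 of 55 CpGs of the locus were called by the logistic model with chi-square test or by the F test, where 0.0477% of the CpGs of the series were DMS by the former and 2 of 568416 by the latter. An unadjusted p under 0.05 was found at 4 of the 55 (7.27%, against 7.09% over the series), the smallest q was 0.350, and the median difference was 0.567 points against 0 over the series.

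**Figure D3:**
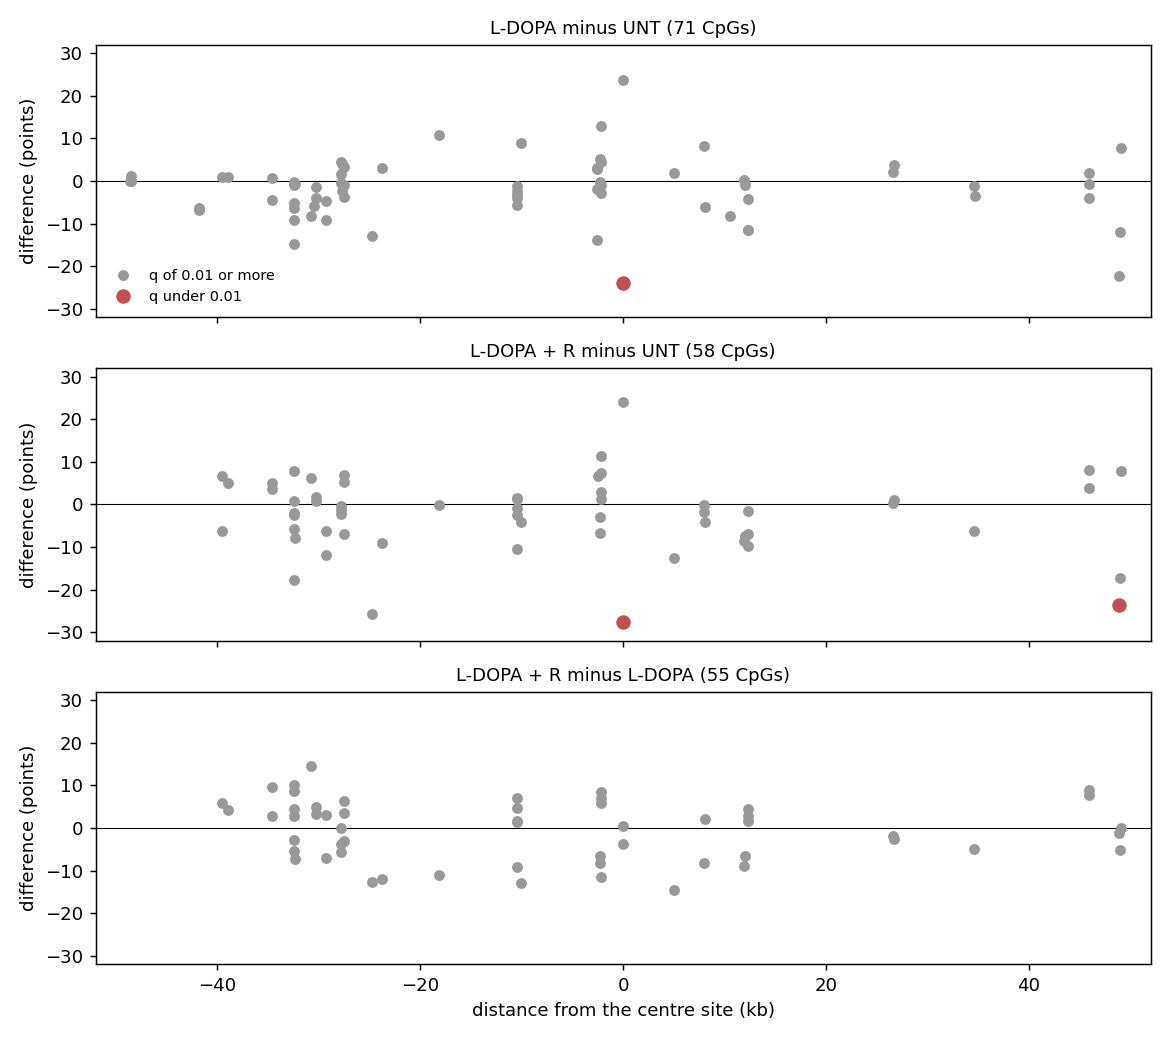
Difference in the percentage of methylated reads (y axis, percentage points, first minus second group) against the distance from the centre site in kb (x axis) for every CpG of the locus tested in L-DOPA minus UNT, L-DOPA + R minus UNT and L-DOPA + R minus L-DOPA. Red points have q under 0.01, which holds for the centre site against UNT in both treated groups and for 1 CpG near 49 kb in L-DOPA + R, and every difference in the lowest panel lies between -14.6 and 14.6 points.

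The second DMS lies 48896 bases past the centre site and, as the gene is read from the minus strand, 4453 bases downstream of the placed promoter-table start of Camk2b. Its merged level was 45.2% of 177 reads for UNT, 22.8% of 334 for L-DOPA and 21.7% of 420 for L-DOPA + R. In UNT, the control striata had 52.4, 53.6 and 34.1% and the lesioned striata 47.6, 68.8 and 31.0%. The L-DOPA + R striata had 18.8, 21.1 and 22.4% on the control and 34.7, 14.8 and 23.8% on the lesioned side, and those of L-DOPA ranged from 13.2 to 32% with a median of 21.7%. A single L-DOPA + R striatum and a single L-DOPA striatum reached above the lowest UNT striatum, and the levels over rats, 47.1% ± 13.2 in UNT and 22.1% ± 3.98 in L-DOPA + R (SD, n = 3 each), did not overlap. The difference was -23.5 points for L-DOPA + R (q = 0.00398) and -22.4 points for L-DOPA (q = 0.0323, not called). The exact permutation test over rats gave p = 0.1 for each, the smallest that 3 against 3 rats allow. With the rat as the unit in the logistic model, q was 0.382 for L-DOPA, and the call in L-DOPA + R was lost (q = 0.0583). That call was also lost without UNT rat 1 (q = 0.155), UNT rat 2 (q = 0.0653), L-DOPA + R rat 2 (q = 0.0676) or L-DOPA + R rat 3 (q = 0.0270).

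Here too the strands moved with the treatment. The forward cytosine had 45.2% methylation for UNT, 57.1% for L-DOPA and 53.5% for L-DOPA + R, which is 11.9 and 8.35 points above UNT in the treated groups (q = 0.846 and 0.804). The reverse cytosine had 3.72% of 215 reads in L-DOPA and 3.02% of 265 in L-DOPA + R, and 2 reads in UNT, both methylated. Reverse reads were therefore 1.12% of the listed reads for UNT, 64.4% for L-DOPA and 63.1% for L-DOPA + R. This reverse cytosine lies 50 bases past that of the next CpG, chr14:86293249, along the read. With cytosines 50 bases past another one left out, the difference at chr14:86293199 was 8.35 points in L-DOPA + R. The centre site was not called in that setting either, although its difference stayed at -27.6 points, so the locus had no DMS in the comparison.

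The CpG at chr14:86293249 had merged levels of 62.9% for UNT, 50.9% for L-DOPA and 45.7% for L-DOPA + R and was not called (q = 0.203 and 0.0154). Its reverse cytosine, the first of the pair along reverse reads, had 63.7, 67.0 and 66.8%. Its forward cytosine, 50 bases past that of its partner, had 61.9% of 265 reads for UNT, 41.0% of 324 for L-DOPA and 30.2% of 361 for L-DOPA + R. Tested on its own, the forward cytosine was a DMS in L-DOPA + R against UNT with a difference of -31.7 points and q = 2.95e-05, while in L-DOPA against UNT its difference of -20.8 points was not called (q = 0.0157). Both tests count the 2 striata of a rat as separate samples. The forward values ran from 51.7 to 77.1% in the UNT striata, with a median of 59.4%, and from 21.7 to 46.2% in the L-DOPA + R striata, with a median of 28.4%, without an overlap. The third CpG of this stretch, chr14:86293348, had 40.7, 48.4 and 48.5%, in the opposite direction, and was not called (q = 0.869 and 0.816).

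**Figure D4:**
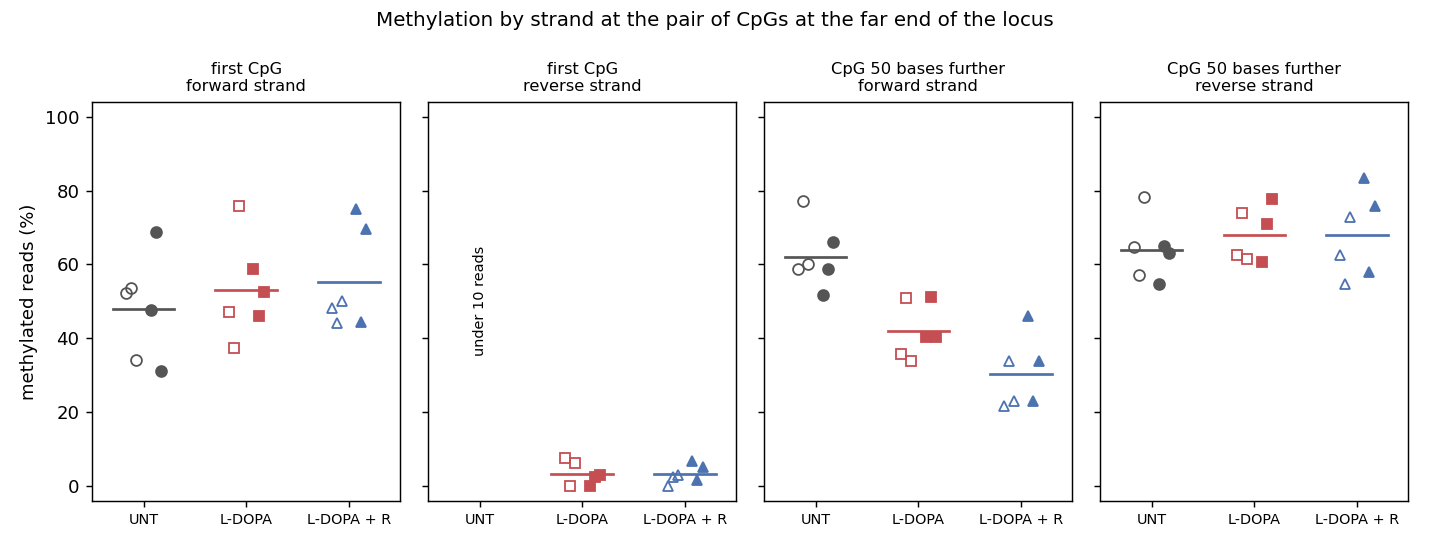
Percentage of methylated reads (y axis) in each striatum with at least 10 reads on that cytosine, for the CpG 48896 bases past the centre site (first CpG) and the CpG 50 bases further, each strand apart, in UNT, L-DOPA and L-DOPA + R (open symbols: control, filled: lesioned, line: mean over striata). The reverse cytosine of the first CpG lies near 0 in the treated groups and has too few reads in UNT, and the forward cytosine of the further CpG is lower in the treated groups.

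The median levels of cytosines at these distances were also compared between the treatments in the whole series. Pairs of cytosines on the same strand were taken in which the first along the read had 80% methylation or more. At a distance of 45 bases, the median of the second was 92.7% for UNT, 93.2% for L-DOPA and 91.7% for L-DOPA + R, and at 46 bases it was 90.8, 91.4 and 92.4%. At 47 bases, the distance of the centre site from its neighbour, it was 28.9% for UNT (1061 pairs), 90.7% for L-DOPA (179 pairs) and 89.8% for L-DOPA + R (178 pairs). At 48 and 49 bases, it was low in every treatment, with 14.1, 33.1 and 12.8% at the former and 21.7, 14.9 and 14.9% at the latter. At 50 bases, it was 94.2% for UNT (74 pairs), 9.77% for L-DOPA (662 pairs) and 9.81% for L-DOPA + R (718 pairs). Of the 187 kept cytosines of the locus, 15 (8.02%) lay 46 to 50 bases past another one, against 10.8% in the series, and both pairs described above are among them. The medians rest on different pairs in each treatment, not on the same cytosines. They also come from different libraries, whose pools are not known, so treatment and library cannot be told apart here. The forward cytosine of the centre site was low in every treatment, which differs from the medians of the treated groups at 47 bases. Single second cytosines at 47 bases were under 20% in every treatment: 46.7% of them for UNT, 11.7% for L-DOPA and 15.2% for L-DOPA + R. The ends of MspI fragments are filled in with free nucleotides when the library is made, so that a filled cytosine does not carry the methylation of the tissue. Whether these cytosines were filled in was not tested, since the sequence of rn6 was not used.

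At the 3 named CpGs away from these pairs, most reads came from the reverse strand in every treatment. At chr14:86234226, reverse reads made up 100% for UNT, 98.3% for L-DOPA and 99.2% for L-DOPA + R. At chr14:86213528, they made up 92.9, 89.2 and 84.2%, and at chr14:86233841, 74.6, 67.0 and 61.5%.

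**Figure D5:**
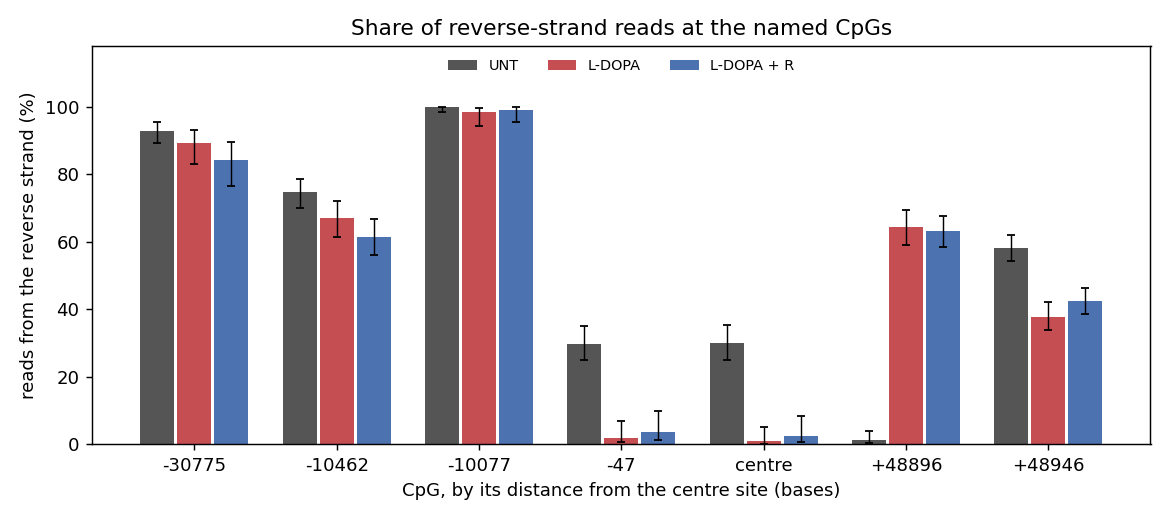
Share of listed reads that come from the reverse strand (y axis, %) at the 7 named CpGs, ordered by their distance from the centre site in bases (x axis), for UNT, L-DOPA and L-DOPA + R, with 95% Wilson intervals as error bars. At the centre site and its neighbour, 29.9 and 29.6% of UNT reads but at most 3.57% of treated reads are reverse, and at the CpG 48896 bases past it the order is the other way round.

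Those 3 CpGs had the smallest p when the treated groups were compared with each other, and none was a DMS. At chr14:86233841, 10462 bases before the centre site, L-DOPA + R stood at 77.0% and L-DOPA at 86.3% (-9.28 points, q = 0.350), with 87.5% in UNT. The L-DOPA + R striata ranged from 71.1 to 84.1% with a median of 76.3%, and those of L-DOPA from 79.2 to 91.8% with a median of 87.8%. At chr14:86213528, 30775 bases before the centre site, L-DOPA + R stood at 91.1% and L-DOPA at 76.5% (14.6 points, q = 0.399), with UNT between them at 84.8%. At chr14:86234226, L-DOPA + R stood at 76.9% and L-DOPA at 89.9% (-12.99 points, q = 0.560), with 81.1% in UNT. The ranges of single striata overlapped at all of them, while the levels over the 3 rats of each group did not, which is a description, since these CpGs were picked by this comparison.

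The lesioned and the control striata were compared within each treatment to see whether the locus differed between the sides. No CpG of the locus was called: 0 of 75 for UNT, 0 of 43 for L-DOPA and 0 of 40 for L-DOPA + R, where 0.00193, 0.00101 and 0.00176% of the CpGs of the series were DMS. The F test also gave 0, but with 3 against 3 striata it recovered 0 of 200 changed CpGs in a simulation. An unadjusted p under 0.05 was found at 7, 0 and 2 CpGs of the locus (9.33, 0 and 5%, against 6.45, 5.40 and 6.29% over the series), and the smallest q values of the logistic model were 0.509, 0.958 and 0.618. At the centre site, the lesioned striata of UNT had 6.27 points more than the control striata (q = 1), with a lower value on the lesioned side in rat 1 (-8.87 points) and higher values in rats 2 and 3 (25.0 and 6.90 points). In L-DOPA, the difference was -2.45 points (q = 1). In L-DOPA + R, rat 1 was below the minimum, so the centre site was outside the comparison of all 6 striata, and without rat 1 the difference was 0.631 points (q = 1).

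The differences between the treatments were also compared between the sides with an interaction term. For L-DOPA against UNT, 0 of 43 CpGs were called, for L-DOPA + R against UNT 0 of 38, and for L-DOPA + R against L-DOPA 0 of 33, with an unadjusted p under 0.05 at 1, 5 and 0 of them (2.33, 13.2 and 0%, against 6.05, 6.44 and 6.12% over the series). In the series, 0%, 0% and 0.000658% of the CpGs were called. At the centre site, the interaction for L-DOPA against UNT was -8.72 points with q = 1. Levels in the control striata alone were compared too, and the locus had no DMS for L-DOPA against UNT and 1 for L-DOPA + R, at chr14:86293249 (-26.2 points), where 0.255 and 0.306% of the CpGs of the series were DMS. In the lesioned striata alone it had none in either comparison, against 0.237 and 0.287% in the series, and the difference at chr14:86293249 was -9.06 points for L-DOPA + R (q = 0.791).

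The 3 CpGs outside the locus whose methylation was most like that of the centre site over the 16 striata in which it was kept were found among 302482 candidates. They were chr1:222392893 (r = 0.944), chr19:16689511 (r = 0.933) and chr20:7886321 (r = 0.931). The values of the striata share libraries and treatment groups, so these correlations are a description. At chr1:222392893, methylation was 12.3% in UNT, with forward reads alone, and 0.980% in L-DOPA + R. In L-DOPA, 0 of 149 reads were methylated, which allows a level of up to 2.01% if the limit is set at 3 reads of the total, a different bound from the Wilson intervals above. At chr19:16689511, it was 25.5, 7.67 and 2.78%, and there too the strands stood apart in UNT, with 7.51% of 386 forward and 87.5% of 112 reverse reads. At chr20:7886321, it was 59.5, 12.3 and 15.7%, with 79 reverse and 0 forward reads in UNT and with 186 and 187 forward reads in L-DOPA and L-DOPA + R, of which 4.84 and 1.07% were methylated. The forward cytosines of these 3 CpGs lie 46, 48 and 50 bases past another cytosine, and that of chr1:222392893 also lies 36 bases past one.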

How the data were processed

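RRBS tables of 18 striata were used, 2 for each of 9 rats, with 3 rats in each of the 3 treatments. The authors trimmed the reads with Trim Galore 0.4.0 in its RRBS mode, mapped them to rn6 with Bismark and read them into methylKit, and the submitters' processing notes also name CASAVA. The deposited coverage is a count of reads per cytosine and strand, not normalized and without a minimum. The authors deposited the methylated share as a percent with 2 decimals. Rows of spike-in controls were left out.

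Methylated reads were rebuilt from coverage and percent. Cytosines with 10 or more reads in a striatum were kept, and then both strands were merged per CpG. Per CpG, a logistic model with overdispersion from Pearson residuals and a chi-square test was fitted over the whole series after the study's methods (numpy 2.4.6 and scipy 1.17.1 under Python 3.11.15), with Benjamini-Hochberg q. Treatments were compared over 6 against 6 striata, with CpGs kept in at least 4 of each, and sides over 3 against 3. Both striata of a rat share the animal, so the rat as the unit is an alternative, and exact permutation tests used rats. Levels are pooled over reads unless a mean ± SD over rats is given, and differences are percentage points. Control and lesioned striata with the same replicate number were taken to belong to 1 rat, since the study used both striata of each rat, but the labels give the number per side and do not name the rat. Their deviations from the group means correlated with r from 0.0336 to 0.112, over 0.1 in 2 of 9 pairs. Values per rat, permutation tests and side differences per rat rest on this assignment. Between treatments, a number stands for different rats.

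In a simulation of 6 against 6 striata with 50000 CpGs, of which 200 were changed, and no spread between striata beyond counting error, the chi-square test recovered 174 with 1 false call and the F test 37. With 3 against 3, these were 153 with 2 false calls, and 0. With a spread between striata (beta-binomial rho of 0.02), the chi-square test recovered 144 with 16 false calls at 6 against 6 and 122 with 27 false calls at 3 against 3, and the F test 18 and 0.

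The CpGs named were the centre site, those within 100 bases of it, DMS of the locus, the 3 with the smallest p in each comparison of treatments, and the 3 outside it most like the centre site. The members, lists and tests were chosen with earlier results of these data known. Tried as alternatives were 20 reads as the minimum, each strand on its own or as a term, leaving out cytosines 50 or 46 to 50 bases past another, the F test, no overdispersion correction, a replicate block, the rat as the unit, all 12 striata, each side alone and each rat left out. Partner genes of CaMKII and regions of single CpGs were not analysed here, since the annotation at hand is of GRCr8.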

Additional observations from a re-analysis of the deposited data

Results flagged for a closer look

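At chr14:86244256, the neighbour of the centre site, the lesioned striatum of L-DOPA + R rat 3 stood far from the other kept striata of its treatment. It had 60% methylation in 20 reads, while the other 3 ranged from 95.2 to 100%. This was 1 of 21 groups of striata looked at. The rule is meant to mark about 1 group in 20 by chance, and its rate for percentages close to 100% was not measured.

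At chr14:86293249, the sides differed in opposite directions in UNT and L-DOPA. The lesioned striatum was lower in each of the 3 UNT rats, by a mean of -6.79 points, and higher in each of the 3 L-DOPA rats, by a mean of 4.98 points. In L-DOPA + R, the differences of the 3 rats were 21.8, -0.729 and 11.8 points. The interaction term of the logistic model did not pass the threshold there (13.1 points, q = 0.866).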

How the results depend on the processing

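The number of DMS at the locus depended on the settings in both comparisons with UNT, and so did the share of the series that was called, given here in parentheses. The centre site was chosen on these comparisons and its neighbour shares its reads, so their calls are counted only to describe the settings. In L-DOPA against UNT, the 1 DMS (0.351%) became 0 with 20 reads (0.421%), with each strand on its own (0.134%), without cytosines 46 to 50 bases past another (0.0776%), with the F test (0.0622%), with strand as a term (0.116%), and in the control (0.255%) or the lesioned striata alone (0.237%), 2 with the rat as the unit (0.331%) and 4 without overdispersion correction (0.744%). The centre site was not tested with 20 reads or without cytosines 46 to 50 bases past another. Too few L-DOPA striata kept it in these settings. Leaving out each rat gave 0 to 2 (0.299 to 0.382%): 0 without L-DOPA rat 1 or UNT rat 1, and 2 without UNT rat 3. The 1 DMS was the centre site without UNT rat 2 but chr14:86244256 without L-DOPA rat 2 and chr14:86293199 without L-DOPA rat 3. The difference at the centre site lay between -20.8 and -27.2 points with each rat left out, and was -23.9 points with the F test, -19.9 in the control and -28.6 in the lesioned striata. In L-DOPA + R against UNT, where 2 were called (0.445%), there was 1 DMS with 20 reads (0.599%) and with all 12 striata (0.611%), at chr14:86293199, and 1 with each strand on its own (0.183%) and in the control striata alone (0.306%), at chr14:86293249, on its forward strand in the former. There were 5 without overdispersion correction (1.22%), and 0 without cytosines 50 (0.227%), or 46 to 50 (0.132%), bases past another, with the F test (0.0578%), with the rat as the unit (0.481%), with strand as a term (0.155%), and in the lesioned striata alone (0.287%). Leaving out each rat gave 0 to 2 (0.354 to 0.475%): 0 without L-DOPA + R rat 2 or 3, the centre site alone without UNT rat 2, chr14:86293199 and chr14:86293249 without L-DOPA + R rat 1, chr14:86219535 and chr14:86293249 without UNT rat 1, and the same 2 DMS only without UNT rat 3. The difference at the centre site stayed at -27.6 points without cytosines 50 bases past another, with the F test and with the rat as the unit, and lay between -24.4 and -30.9 points in the 4 leave-outs in which it could be compared. Beyond what fewer reads or samples give by construction, the cause was not tested. L-DOPA + R against L-DOPA, the sides and the interaction had 0 DMS in every setting run.

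Several differences changed direction with the handling of strands. At the centre site, L-DOPA minus UNT was 1.16 points on the forward strand and with strand as a term, and L-DOPA + R minus UNT was -2.52 points in both. At chr14:86244256, L-DOPA minus UNT was -0.878 points on the forward strand, without cytosines 46 to 50 bases past another and with strand as a term, and L-DOPA + R minus UNT was -0.311 points in these settings. There, L-DOPA + R minus L-DOPA ranged from -1.89 points without L-DOPA rat 2 to 2.51 points without L-DOPA rat 1. At chr14:86293199, the differences were 11.9 points for L-DOPA and 8.35 points for L-DOPA + R on the forward strand, without cytosines 50, or 46 to 50, bases past another and with strand as a term. At chr14:86293249, L-DOPA + R minus UNT was 3.11 points on the reverse strand and without cytosines 50, or 46 to 50, bases past another.

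With the replicate block, the pairing of striata by number, the counts were 1 for L-DOPA (0.420% of the series), 3 for L-DOPA + R against UNT (0.511%) and 0 in every other comparison. The added DMS was chr14:86219535, which is named after its values were seen (-25.6 points, q = 0.00391 with the block and 0.0478 without it). Between treatments, this block joins striata of different rats that share only a number, so that call rests on a pairing the design does not have. No call between the sides changed.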
